A study of Mus musculus with 7 samples.

Results

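The septin filament genes and anillin were followed in RNA-seq libraries of cultured mouse oligodendroglia with and without the transcription factor Klf13. The genes were taken by name and comprise Septin2, Septin4, Septin5, Septin6, Septin7, Septin8, Septin9, Septin11 and Anln, which are 9 of the 49315 genes in the count tables. Glia were first grown together from the brains of newborn mice, oligodendrocyte precursors were then detached by shaking and cleared of microglia, and these cells were kept in SATO medium under differentiating conditions for 6 days. The 4 control libraries came from Klf13-wt mice and the 3 knockout libraries from Klf13-ko mice, in which the gene was lost constitutively in every cell type and not only in oligodendroglia. The libraries were labelled as biological replicates, and p-values refer to the spread between these libraries.

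Septins are GTP-binding proteins that join end to end into rods and filaments at membranes and on the cytoskeleton. They fall into homology groups named after SEPT2, SEPT3, SEPT6 and SEPT7, and a filament is built from members of several groups. In myelin of the central nervous system, septins and the adaptor protein anillin form a scaffold along the innermost, adaxonal layer, which stabilises the sheath against outfoldings. In dividing cells of all kinds, anillin and septins are part of the contractile ring.

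The libraries held 24507471 to 59596479 counts on genes, and Klf13 itself, the deleted gene, was between 10670 and 12000 normalized counts in control libraries and between 801.6 and 961.2 in knockout libraries. Normalized counts are counts scaled to a common library size, and a gene was called lower or higher in the knockout where its p-value in the quasi-likelihood test of edgeR, adjusted after Benjamini-Hochberg for all 18352 tested genes, did not exceed 0.05. Levels of different genes were compared as length-scaled levels, meaning counts per kb of exon and per 1000000 counts of the scaled library. All 12 myelin markers were called lower, with summed length-scaled levels of 5199 to 5676 in control libraries and 1580 to 1846 in knockout libraries, so both groups held the transcripts of myelinating cells. Transcripts of other cell types were present too. Of the neuron markers 10 of 12 were called higher (summed level 135.9 to 183.2 in controls, 221.4 to 303.9 in knockouts) and of the astrocyte markers 7 of 8 (1073 to 1231 and 1298 to 1480). Of the 8 microglia markers, 0 were called by edgeR or DESeq2 and 0 had an unadjusted p of at most 0.05, and their summed level was 1185 in control library 3 against 264.6 to 551.3 in the other libraries. Of the fibroblast and mural cell markers 1 of 9 was called, Dcn, which was lower, and their sum was 222.7 and 280 in control libraries 4 and 3 against 50.16 to 103.1 elsewhere. Of the endothelial markers 1 of 4 tested was called, Cdh5, which was lower, their sum was at most 3.309, and Cldn5 had at most 1 count in any library. In bulk RNA, fewer cells of a type and less RNA per cell cannot be told apart.

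Of the 9 genes, 3 were called lower in the knockout (Septin4, Septin7 and Anln) and 2 higher (Septin5 and Septin6), and 4 did not pass (Septin2, Septin8, Septin9 and Septin11). Among all genes tested, 12.2% were called lower and 11.6% higher. When a log2 change of 1 or more in either direction was also required, Septin4 and Anln were lower and Septin6 was higher, against 3.08% of all tested genes lower and 3.97% higher. The knockout libraries lay wholly below the controls for 4 of the genes and wholly above for 1, against 18.0% and 18.3% of all genes tested. The median log2 fold change of the 9 genes was -0.03, beside -0.004 over all genes.

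**Figure D1:**
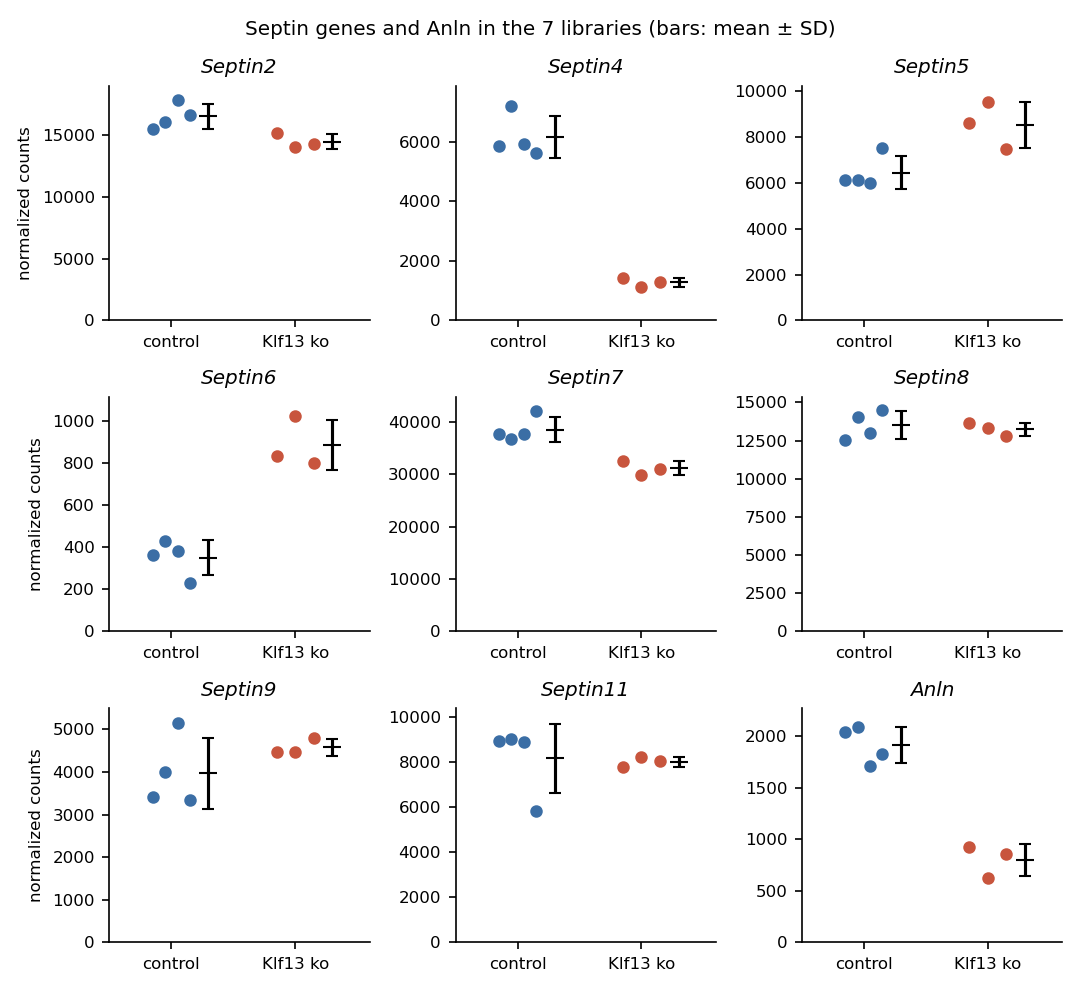
Normalized counts of the 8 septin genes and Anln in each library, with linear axes from 0; points are libraries (4 control, blue; 3 Klf13 knockout, red) and bars the mean and SD. Septin4 fell from between 5610 and 7193 to between 1129 and 1415, while Septin8 stayed between 12556 and 14529 in all 7 libraries.

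Septin4, a septin of the SEPT2 group and a component of the myelin scaffold, had the largest change. Its normalized counts were 5872, 7193, 5921 and 5610 in control libraries 1 to 4 and 1415, 1129 and 1281 in knockout libraries 1 to 3. Every knockout library was thus far below the lowest control, and the mean was 20.7% of the control mean (1275 ± 143.5, SD, n = 3, against 6149 ± 709.2, n = 4). The log2 fold change was -2.27 (SE 0.12, 95% CI -2.548 to -1.997, edgeR adjusted p = 4.83e-05), which was the 44th smallest p-value of all genes, and 0.899% of the tested genes had a lower fold change. With libraries split by their share of counts on the ribosomal-RNA-rich genes Gm42418, Gm23935 and Lars2, the log2 ratio of means was -2.09 above a share of 10% (2 control and 2 knockout libraries) and -2.54 below it (2 and 1).

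Septin2, the founding member of the same homology group, moved little. It had 15483, 16035, 17858 and 16634 normalized counts in control libraries and 15168, 14000 and 14246 in knockout libraries, a log2 fold change of -0.19 (95% CI -0.34 to -0.04). All knockout libraries lay below the controls, by a small margin, and the gene was not called (edgeR adjusted p = 0.0773). Its log2 ratio of means was -0.13 and -0.28 in libraries with the higher and the lower ribosomal share. Of its 100-base stretches, 39% also occur in another GENCODE model of the same name. No other counted gene shared exon bases with Septin2.

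Septin5, the third gene of the SEPT2 group, is abundant in neurons, where it associates with synaptic vesicles. Its normalized counts were 6129, 6124, 5970 and 7495 in control libraries and 8587, 9495 and 7456 in knockout libraries. Control library 4 was above knockout library 3, so the groups overlapped, and the log2 fold change was 0.41 (SE 0.11, 95% CI 0.15 to 0.66, edgeR adjusted p = 0.0349). The call was lost without control library 1, 2 or 3 or without knockout library 1 or 2, with log2 fold changes of 0.40, 0.38, 0.37, 0.41 and 0.32 and edgeR adjusted p-values of 0.0769, 0.0747, 0.0672, 0.1 and 0.118. The exons of Septin5 share 593 bases, 27.9% of their length, with those of Gp1bb on the same strand, so its counts are uncertain. Of the 100-base stretches of its GENCODE transcripts, 76.9% also occur in those of Gp1bb or Gm49601. Only Gp1bb was found among the counted genes that share exon bases with Septin5. Gp1bb itself had a log2 fold change of 0.04 (edgeR adjusted p = 0.919). The log2 ratio of means was 0.24 in libraries with the higher ribosomal share and 0.65 in the others.

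Septin7 is the only member of its own homology group and occupies a fixed place in septin rods. It was the septin with the most counts, at 37715, 36597, 37697 and 41951 normalized counts in control libraries and 32458, 29859 and 30958 in knockout libraries. No knockout library reached the lowest control, and the mean was 80.8% of the control mean (log2 fold change -0.31, SE 0.07, 95% CI -0.47 to -0.15, edgeR adjusted p = 0.0177). The call was lost without control library 1 (-0.30, edgeR adjusted p = 0.0542) or knockout library 1 (-0.32, 0.065), 2 (-0.28, 0.0736) or 3 (-0.30, 0.0776), and also with upper quartile scaling (-0.27, 0.0585). The log2 ratios of means within the higher and lower ribosomal share were -0.33 and -0.32.

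The SEPT6 group was represented by Septin6, Septin8 and Septin11. Septin6 had 360.5, 427.4, 381.8 and 232.1 normalized counts in control libraries and 832.3, 1020 and 801.2 in knockout libraries. The groups were well apart, with a 2.53-fold higher mean in the knockout (log2 fold change 1.34, SE 0.20, 95% CI 0.86 to 1.81, edgeR adjusted p = 0.00479), and 2.92% of the tested genes had a higher fold change. The log2 ratio of means was 1.46 and 1.33 in libraries with a higher and a lower ribosomal share. Its exons share 308 bases with the antisense gene Gm15008, which had at most 3 counts in any library.

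Septin8, another component of the myelin scaffold, had 12556, 14037, 13021 and 14529 normalized counts in control libraries and 13640, 13310 and 12776 in knockout libraries. The groups overlapped, and the interval of the log2 fold change ran from -0.19 to 0.12 around -0.03 (edgeR adjusted p = 0.774). Septin11 had 8901, 8998, 8870 and 5840 normalized counts in control libraries, where library 4 stood below the others, and 7762, 8193 and 8025 in knockout libraries. Its groups overlapped too, and its interval was wider, from -0.38 to 0.32 around -0.03 (edgeR adjusted p = 0.917). For both genes the sign near zero depended on the scaling and turned positive with upper quartile factors (0.01 for each). With the neuron and astrocyte marker levels as covariates Septin11 was at -0.58 and -0.83 (edgeR adjusted p = 0.409 and 0.576), below an unadjusted p of 0.05 in both fits but not called. Its log2 ratio of means was 0.10 in libraries with the higher ribosomal share and -0.12 in the others, and that of Septin8 was -0.04 and -0.02.

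Septin9, a SEPT3-group septin that lengthens septin rods and binds actin, had 3407, 4003, 5139 and 3336 normalized counts in control libraries and 4463, 4471 and 4803 in knockout libraries. The groups overlapped through control library 3 alone, the library with the most microglia and fibroblast transcripts. The log2 fold change was 0.21 (95% CI -0.14 to 0.55, edgeR adjusted p = 0.372). With the microglia marker level as a covariate it was 0.28 (edgeR adjusted p = 0.0574), with the fibroblast and mural level 0.36 (0.397), and without control library 3 it was 0.35 (edgeR adjusted p = 0.0285). The log2 ratio of means was 0.46 in libraries with the higher ribosomal share and -0.03 in the others, which included control library 3. Among these others, knockout library 2 (4471) lay above control library 2 (4003) and below control library 3 (5139).

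Anln encodes anillin, which links septins to actin and myosin. Its normalized counts were 2035, 2086, 1711 and 1822 in control libraries and 920.8, 625.5 and 859.9 in knockout libraries. The groups were separate, and the mean fell to 41.9% of that in controls (log2 fold change -1.26, SE 0.14, 95% CI -1.60 to -0.92, edgeR adjusted p = 0.00167), with 2.95% of the tested genes lower. Within the higher and lower ribosomal share the log2 ratio of means was -1.11 and -1.60.

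**Figure D2:**
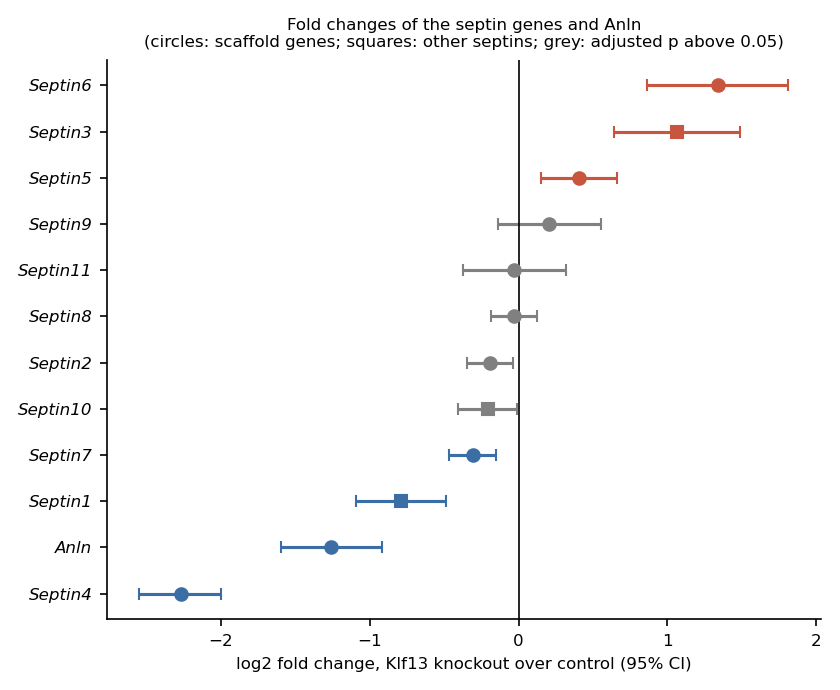
Log2 fold change (knockout over control) with its 95% confidence interval for the 9 genes (circles) and the other septins tested (squares); blue is called lower, red called higher and grey not called. The values run from -2.27 for Septin4 to 1.34 for Septin6, and the intervals of Septin8, Septin9 and Septin11 include 0.

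The sequences around the transcription starts of the genes with the steepest falls are shown because Septin4 and Anln both fell and Klf13 belongs to the Krüppel-like factors, which bind GC-rich GC and CACCC boxes. RefSeq windows of 300 bases (most of it upstream of an annotated start, build GRCm38.p6) were found for 7 of the 9 genes, 16 windows in all, but not for Septin5 and Septin6. In the windows below, written 5′ to 3′ on the strand of the gene, capitals mark GGGCGG on either strand, and overlapping matches run together. Septin4 had 4 windows on the plus strand, numbered by position, of which the second, chr11:87578139-87578438, and the fourth, chr11:87580811-87581110, are printed; both lie at starts inside the gene, which spans chr11:87568903-87590539. The first, chr11:87566439-87566738, lies before the start of the gene in the count tables and held 0 matches to any motif searched, and the third, chr11:87578170-87578469, overlaps the second and held the same number of each. The Anln window, chr9:22389157-22389456 on the minus strand, covers the 5′ end of the gene at chr9:22332012-22389188.
Septin4, the second window: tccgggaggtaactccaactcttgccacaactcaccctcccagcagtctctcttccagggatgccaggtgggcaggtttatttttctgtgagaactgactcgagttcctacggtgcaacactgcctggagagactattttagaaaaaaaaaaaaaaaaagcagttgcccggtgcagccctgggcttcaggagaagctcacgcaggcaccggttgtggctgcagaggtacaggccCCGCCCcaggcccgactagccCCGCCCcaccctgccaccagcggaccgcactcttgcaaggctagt
Septin4, the fourth window: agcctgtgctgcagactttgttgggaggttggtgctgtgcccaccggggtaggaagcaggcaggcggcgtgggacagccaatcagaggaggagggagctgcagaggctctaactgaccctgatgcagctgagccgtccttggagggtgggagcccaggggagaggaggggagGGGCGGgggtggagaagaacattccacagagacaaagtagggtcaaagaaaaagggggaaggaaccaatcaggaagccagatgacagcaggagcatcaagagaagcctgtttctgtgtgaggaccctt
Anln: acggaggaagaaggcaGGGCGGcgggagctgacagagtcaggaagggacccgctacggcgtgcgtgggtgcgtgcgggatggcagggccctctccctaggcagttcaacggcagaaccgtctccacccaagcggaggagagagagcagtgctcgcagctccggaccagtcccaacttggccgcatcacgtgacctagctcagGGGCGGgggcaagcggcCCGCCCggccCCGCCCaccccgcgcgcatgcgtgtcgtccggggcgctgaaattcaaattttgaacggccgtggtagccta
The second Septin4 window held 2 GGGCGG and 2 CACCC matches, the fourth 1 and 2, and the Anln window 4 and 3. Over the 16 windows, GGGCGG occurred in 10 and CACCC in 11, and the 2 motifs overlapped in 1; among 32851 windows of the table, 35.7% held GGGCGG and 57.5% CACCC on either strand. The SOX motif ACAAAG occurred in 2 of the 16 windows, the fourth of Septin4 and the first of Septin7, against 18.7% of all windows, and ACAATG in 0 of the 16, against 12.6%. Genes that were not called held the same letters, with 3 GGGCGG matches shared by the overlapping Septin2 windows and 4 in 1 Septin9 window. Neither Septin7 window held one, and binding was not measured in these data.

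Divided by exon length, the septins could be compared with each other. In the controls Septin7 and Septin5 were highest, at length-scaled levels of 75.2 ± 4.63 and 68.7 ± 7.64 (SD, n = 4), with overlapping libraries. Septin8 (50.6 ± 3.38), Septin2 (47.0 ± 2.9) and Septin4 (39.2 ± 4.53) followed, each overlapping the next. Septin11 (19.6 ± 3.70) and Septin9 (11.9 ± 2.51) overlapped as well, and Anln (4.80 ± 0.44) and Septin6 (0.81 ± 0.19) were lowest and separate.

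In the knockouts the order per length was Septin5 (91.0 ± 10.9, n = 3), Septin7 (60.8 ± 2.55), Septin8 (49.5 ± 1.63), Septin2 (41.2 ± 1.75), Septin11 (19.2 ± 0.52), Septin9 (13.8 ± 0.58) and Septin4 (8.14 ± 0.92), none of which overlapped its neighbour. Septin4 thus moved from the 5th to the 7th place. Septin6 (2.04 ± 0.27) and Anln (2.01 ± 0.39) overlapped at the low end.

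The makeup of the septin pool differed between the groups. The summed length-scaled level of the 8 septins was 300.2, 315.7, 312.5 and 324.2 in control libraries and 292.4, 292.2 and 272.3 in knockout libraries, without overlap. The share of Septin4 in this sum went from 12.5 ± 1.5% to 2.85 ± 0.34%, and the share of Septin5 from 21.9 ± 2.0% to 31.8 ± 2.8%, neither with any overlap. The other shares stood at 24.0% and 21.3% for Septin7, 16.1% and 17.3% for Septin8, 15% and 14.4% for Septin2, 6.27% and 6.73% for Septin11, 3.81% and 4.83% for Septin9, and 0.26% and 0.71% for Septin6. Shares of one sum depend on each other, and that of Septin5 carries the uncertainty of its overlap with Gp1bb. In summed counts without division by length, the share changed by -5.02 percentage points for Septin4 and by 3.51 for Septin5.

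**Figure D3:**
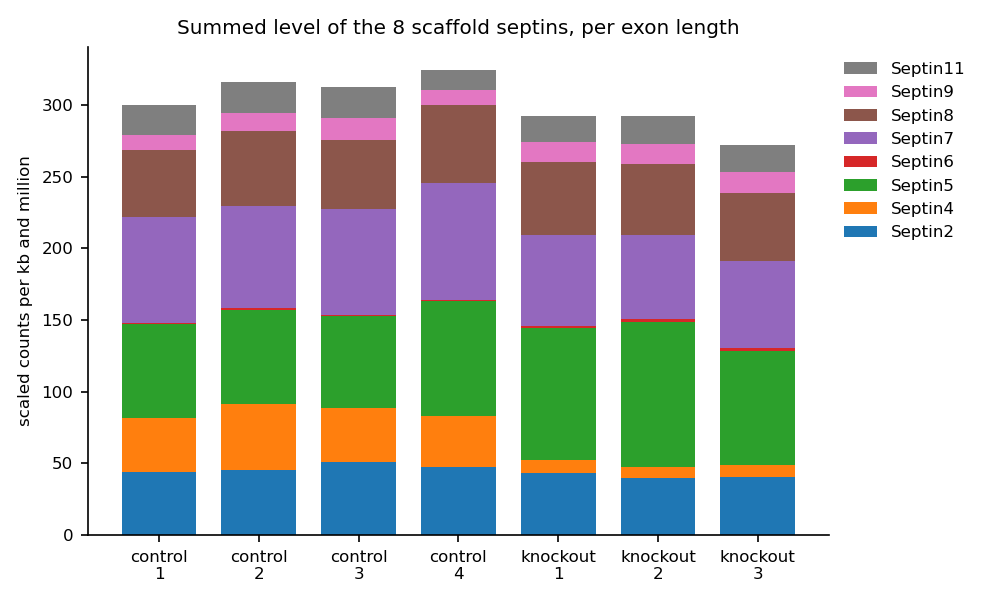
Stacked level of the 8 septins per exon length in each library (length-scaled level, bars from 0). The total lies between 300.2 and 324.2 in control libraries and between 272.3 and 292.4 in knockout libraries, and the Septin4 segment shrinks from 11.0% or more of the bar to 3.09% or less.

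Ratios within a library, formed after the values had been seen, described the balance within the SEPT2 group. Septin4 over Septin2 per length was 0.849, 1, 0.743 and 0.755 in control libraries and 0.209, 0.181 and 0.201 in knockout libraries. Septin5 over Septin4 per length was 1.75, 1.43, 1.69 and 2.24 in control libraries and 10.2, 14.1 and 9.75 in knockout libraries. Neither ratio overlapped between the groups, and the two-sided exact permutation p of each was 0.0571, the smallest that 4 against 3 libraries allow (4 ratios were computed, adjusted p = 0.0571).

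The remaining septins changed in both directions as well. Septin3, a neuronal septin of the SEPT3 group, had 4561, 4735, 3373 and 2890 normalized counts in control libraries and 7670, 9150 and 7572 in knockout libraries (log2 fold change 1.06, SE 0.18, edgeR adjusted p = 0.0071). Septin1, of the SEPT2 group, was low, at 149.8 to 155.5 in control libraries and 83.05 to 96.92 in knockout libraries (log2 fold change -0.79, SE 0.13, edgeR adjusted p = 0.00617). Septin10 was not called (log2 fold change -0.21, edgeR adjusted p = 0.122), and Septin12 and Septin14 did not pass the filter on low counts. The 3 tested septins thus held 1 lower and 1 higher gene, with a median log2 fold change of -0.21.

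Summed over all 13 septins by homology group, the groups of libraries were apart for SEPT3 and SEPT7 and overlapped for SEPT2 and SEPT6. The SEPT3 group had a summed length-scaled level of 23.25 to 33.69 in control libraries and 48.5 to 55.3 in knockout libraries, without overlap. Within it, the mean of Septin3 was 17.8 in controls and 37.2 in knockouts. That of Septin9, which was not called, was 11.9 and 13.8. The SEPT2 group, in which Septin4 and Septin1 were called lower and Septin5 higher, had 148.4 to 164.6 and 129.2 to 149.4, with overlap. The SEPT6 group had 77.57 to 83.01 and 75.91 to 79.31, also with overlap, and the total of all 13 septins, 340.4 ± 8.01 in control libraries and 330.7 ± 14.1 in knockout libraries, overlapped too, unlike that of the 8 septins above.

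Summed markers of neurons, astrocytes and oligodendrocyte precursor cells were also higher in the knockout, without overlap between the groups. Those of the precursor cells were at 268.3 to 317.3 in control libraries and 352.3 to 372 in knockout libraries. Septin6 per length was 0.83, 0.98, 0.88 and 0.53 in control libraries and 1.92, 2.35 and 1.84 in knockout libraries. Both Septin6 and the summed neuron markers were lowest in control library 4 and highest in knockout library 2. Septin5 per length was, among the controls, highest in control library 4, at 80.13. With the mean neuron marker level as a covariate the log2 fold change of Septin6 was 0.47 (edgeR adjusted p = 0.553), with that of astrocyte markers 0.20 (0.953), and with that of fibroblast and mural markers 0.99 (0.092). That of Septin5, 0.405 without a covariate, was 0.55 (edgeR adjusted p = 0.455), 0.69 (0.644) and 0.38 (0.294). That of Septin3 was 0.22, -0.24 and 0.61, and none of these was called. The neuron and astrocyte levels did not overlap between the genotypes, so their parts in the values cannot be told apart from that of the genotype. The summed fibroblast and mural level (96.66 to 280 and 50.16 to 98.45) overlapped only between control library 2 and knockout library 3. Its part is thus poorly separated from that of the genotype as well. Over all genes the neuron covariate left 288 genes lower and 20 higher of 2246 and 2122. The astrocyte covariate left 90 and 6, and the fibroblast and mural covariate 672 and 206. Of the genes that fell, Septin4 was called with each of these 3 covariates. Septin7 was at -0.10 (edgeR adjusted p = 0.788) with the neuron, -0.01 (0.995) with the astrocyte and -0.22 with the fibroblast and mural covariate, not called with any of them. Anln was at -1.31 (edgeR adjusted p = 0.121) and -1.46 (0.309) with the neuron and astrocyte covariates. In both fits Anln had an unadjusted p of at most 0.05 but was not called. It was called with the fibroblast and mural covariate.

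**Figure D4:**
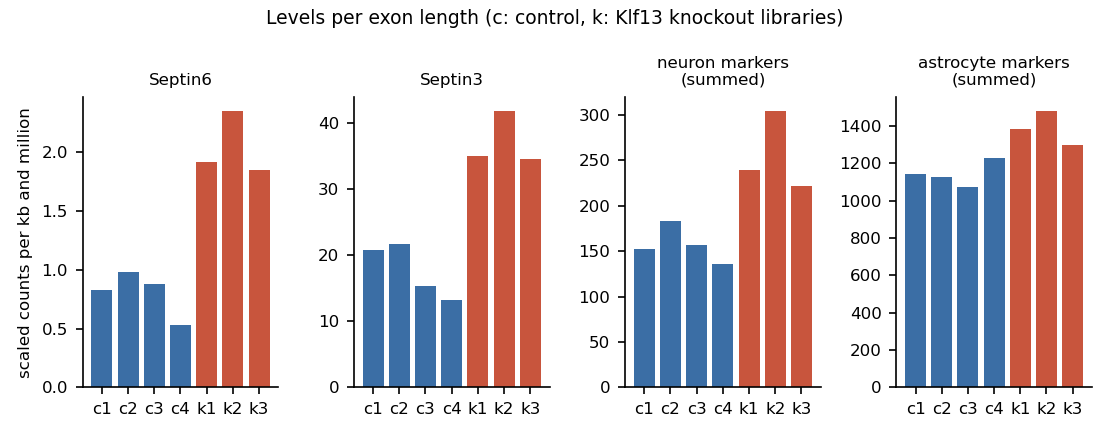
Levels of Septin6 and Septin3 and summed levels of the neuron and astrocyte markers in each library, as length-scaled levels with axes from 0 (c1 to c4, control libraries; k1 to k3, Klf13 knockout libraries). All knockout bars stand above all control bars in the 4 panels, and knockout library 2 is the highest in each.

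Anillin could be read beside both of its settings, cell division and myelin. All 15 mitosis markers were called lower (median log2 fold change -0.80), with a summed length-scaled level of 143.6 to 167.9 in control libraries and 75.71 to 100.6 in knockout libraries. The range was from -1.02 for Top2a, a topoisomerase of dividing cells (edgeR adjusted p = 0.0012), to -0.42 for Ccnb2, a mitotic cyclin (0.0339), and Mki67 and Tpx2 were at -0.86 and -0.72. Anln had a lower log2 fold change than each of the 15.

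Of 14 cytokinesis partners of anillin, 11 were called lower and 3 were not called, with a median log2 fold change of -0.72. Without knockout library 1, 7 of them were lower, and with the marker covariates above edgeR called 2 lower (fibroblast and mural) or 0 (neuron or astrocyte), and of the mitosis markers 8 or 0. The lowest was Cep55, an abscission protein (-0.91, edgeR adjusted p = 0.00465), and the 3 with the highest levels were not called, namely the GTPase gene Rhoa (-0.25, 0.0638) and the non-muscle myosin heavy chain genes Myh9 (-0.78, 0.0575) and Myh10 (0.48, 0.0986). The last 3 are also active outside of cell division. Anln was lower than all 14.

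The ratio of Anln to the geometric mean of the mitosis markers was 0.961, 1.01, 0.885 and 1 in control libraries and 0.726, 0.652 and 0.715 in knockout libraries. The groups did not overlap (log2 difference -0.47, two-sided exact permutation p = 0.0571, the smallest possible). With the mitosis marker level as a covariate the log2 fold change of Anln was -0.23 (edgeR adjusted p = 0.771) and that of Septin4 -1.65 (0.328), in an edgeR fit that called 0 of all genes tested and had 1323 at an unadjusted p of at most 0.05.

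Among the 12 myelin markers the log2 fold changes ran from -3.57 for Ermn, which encodes an actin-binding protein of myelin, to -0.96 for Cnp, with a median of -2.80, and 8 were lower than Septin4 and 9 lower than Anln. Mbp and Cldn11, which are among the most abundant, were at -1.78 and -0.995. The ratio of Septin4 to the geometric mean of the myelin markers was 0.264, 0.287, 0.259 and 0.274 in control libraries and 0.308, 0.301 and 0.323 in knockout libraries. All knockout libraries lay above the controls in this ratio (log2 difference 0.20, two-sided exact permutation p = 0.0571).

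**Figure D5:**
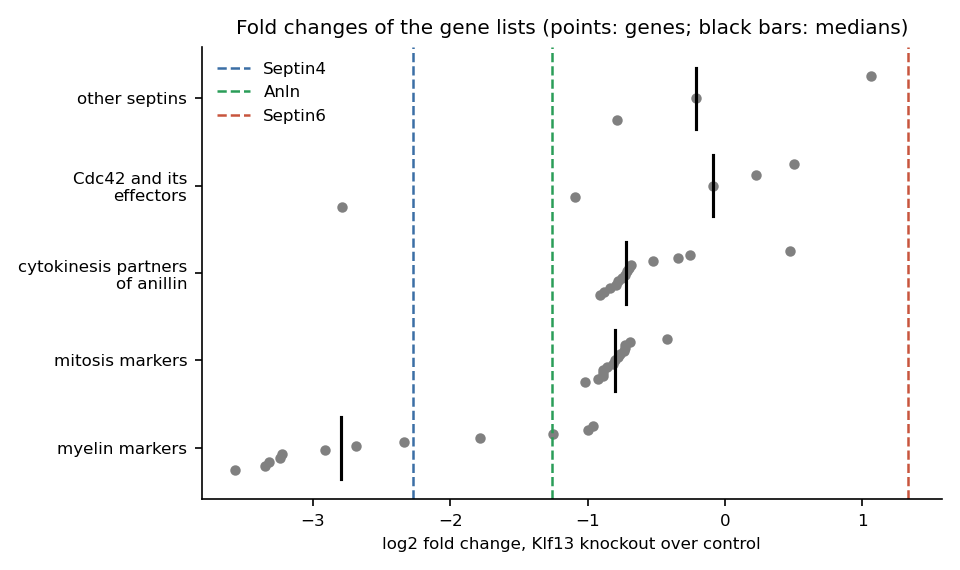
Log2 fold changes (knockout over control) of the genes of 5 lists, with a point for each tested gene and a black bar at the median; dashed lines give Septin4, Anln and Septin6. The Anln line lies below all 15 mitosis markers and all 14 cytokinesis partners, and the Septin4 line lies within the range of the myelin markers.

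The GTPase Cdc42 binds the Cdc42 effector proteins, known as borg proteins, which bind septins and organise their filaments. Of 5 tested genes, Cdc42 itself included, 2 were called lower and 1 higher. The median log2 fold change was -0.08, the value of Cdc42. Cdc42ep2 had 1076, 1127, 1072 and 908 normalized counts in control libraries and 149.9, 148.5 and 156.1 in knockout libraries (log2 fold change -2.79, SE 0.10, edgeR adjusted p = 1.94e-05). Cdc42ep1 was also lower (-1.09, edgeR adjusted p = 0.00479), Cdc42ep4 was higher (0.51, 0.0191), and Cdc42 itself was at -0.08 (0.439). The call of Cdc42ep4 was lost with the fibroblast and mural, neuron or astrocyte covariate and without control libraries 3 and 4.

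The genes closest in pattern were sought among 12765 genes over the 7 libraries, by the root mean square difference of log2 levels centred on the control mean. For Septin4 they included Arhgap28 (0.084) and Acy3 (0.087). For Septin6 they were Ncs1, a neuronal calcium sensor gene (0.063), the potassium channel gene Kcna3 (0.087) and Epb41l3 (0.10). For Anln they were Piga (0.083), Esco2, which acts in sister chromatid cohesion (0.112), and St18 (0.115). The measure is dominated by the difference between the groups, so it describes genes with a fold change of about the same size.

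The earlier stages of the lineage were described by 2 further lists. Of 6 markers of oligodendrocyte precursor cells, 3 were called higher and 3 were not called (median log2 fold change 0.24, Pdgfra 0.07 and Vcan 0.51). Of 6 markers of newly formed oligodendrocytes, 3 were called lower and 1 higher (median -0.27, Enpp6 -0.49 and Bmp4 0.45).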

How the data were processed

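RNA-seq was performed on 4 control and 3 Klf13 knockout libraries of primary mouse oligodendroglia, grouped by the genotype in the labels. The deposited values are raw counts per gene. According to the study and the submitters' processing notes, the authors trimmed reads with Trimmomatic 0.36, mapped them with STAR 2.5.2b to GRCm38 and counted unique exonic hits with featureCounts of Subread 1.5.2; the annotation release and strand setting are not given in the sources used here. Gene symbols were found for 48970 of 49315 identifiers. Depth was 24507471 to 59596479 counts per library, 6.03% to 18.0% of them on Gm42418, Gm23935 and Lars2.

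Counts were fitted with edgeR 4.0.16 in R 4.3.3 (filterByExpr, TMM factors, robust quasi-likelihood test, genotype as the only term), after tests on simulated data, and p-values were adjusted over 18352 genes. Levels per length are TMM-scaled counts per kb of the exon length given in the files and per 1000000 counts. The genes and lists were chosen with earlier results of these data known. Named were all 9 genes and, of each list, the lowest and highest fold change and the 3 highest levels, as far as a result turned on them. Some values under this rule are not reported here. Levels in the covariate fits are means over a marker list, and the astrocyte, microglia and mitosis covariates were chosen after seeing the data. Other alternatives were DESeq2 1.42.0, other scalings and filters, a ribosomal share covariate, omission of libraries and a replicate block. Deviations from the group means of libraries with the same replicate number correlated at 0.113, 0.463 and 0.168 (different numbers, -0.529 to 0.197), so the number was fitted as a block in an alternative; the reported values are from the fit without it, and the labels do not say what the numbers share.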

Additional observations from a re-analysis of the deposited data

Results flagged for a closer look

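Septin11 was at 5840 normalized counts in control library 4, while the other 3 controls were between 8870 and 8998, a gap of 0.960 of the range of the group. Septin5 was at 7495 normalized counts in the same library, above 5970 to 6129 in the other controls, a gap of 0.896 of the range. Both gaps exceed Dixon's 95% critical value for 4 samples, among 12 genes looked at, and chance gives such a gap in about 1 of 20 groups. Without control library 4 the log2 fold change of Septin5 was 0.51 (edgeR adjusted p = 0.0133).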

How the results depend on the processing

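Of the alternative fold changes of the 9 genes, 155 kept direction and call, 26 kept direction but were no longer called, 1 was newly called and 16 changed sign, 15 of these for genes that were called in neither fit. Septin8 turned to 0.007 with upper quartile factors, 0.034 with library sizes without the 100 highest genes, 0.005 with the replicate block, 0.027 and 0.101 with the neuron and astrocyte covariates and 0.025 without control library 4 (range without a library -0.052 to 0.025). Septin11 turned to 0.014, 0.039, 0.063 and 0.341 with upper quartile factors, without the 100 highest genes, with the ribosomal share and with the mitosis covariate, and to 0.035, 0.022, 0.014 and 0.011 without control library 1, 2 or 3 or knockout library 1 (range -0.138 to 0.035). Septin2 turned to 0.070 with the astrocyte and Septin10 to 0.049 with the mitosis covariate. The replicate block (paired fit) changed no call among the 9 genes and gave -0.16 for Septin11 (edgeR adjusted p = 0.102); it called 1 cytokinesis gene higher, as did the ribosomal share covariate, which also called 2 other septins lower. Leaving out a library gave 0.319 to 0.507 for Septin5, 1.203 to 1.448 for Septin6, -0.332 to -0.244 for Septin7, 0.152 to 0.353 for Septin9 and -1.347 to -1.104 for Anln, 1 to 2 genes of the 9 higher, 7 to 11 cytokinesis genes lower and 0 to 1 higher. Septin7 was not called with upper quartile factors (-0.270) or library sizes without the 100 highest genes (-0.242). Omission of control libraries 3 and 4 left 0 Cdc42 genes called higher. With the fibroblast and mural covariate, calls were lost for Septin5 (0.381), Septin6 (0.986) and Septin7 (-0.223), leaving 0 of the 9 genes higher, 0 other septins lower or higher, 0 Cdc42 genes higher, 2 cytokinesis and 8 mitosis genes lower. With the neuron covariate they were lost for Septin5 (0.547), Septin6 (0.474), Septin7 (-0.101) and Anln (-1.306), leaving 1 of the 9 genes lower and 0 higher, and 0 in the other counts of septins, of higher Cdc42 genes and of cytokinesis and mitosis genes. With the astrocyte covariate the values were 0.693, 0.197, -0.010 and -1.461 in the same order, with 1 of the 9 genes lower and 0 higher, 0 other septins, cytokinesis and mitosis genes, 1 Cdc42 gene lower and 0 higher, 6 myelin genes lower, and Septin3 reversed to -0.238. With the mitosis covariate Septin4 was at -1.649, Septin5 reversed to -0.169, Septin6 was at 1.328, Septin7 at -0.300 and Anln at -0.231, and 0 genes of any list were called by edgeR, as 0 of all genes were (1323 at an unadjusted p of at most 0.05). The causes were not tested. Each covariate takes a degree of freedom, and the summed neuron, astrocyte and mitosis levels did not overlap between the genotypes. The summed fibroblast and mural level overlapped only between control library 2 and knockout library 3, and the ribosomal share overlapped too. Shares of summed counts without division by exon length changed by -5.02 percentage points for Septin4, 3.51 for Septin5 and 0.703 for Septin6.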
